A study of Mus musculus with 11 samples.

Results

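The glutathione and thioredoxin redox enzymes were followed here as 10 genes, Oplah, Gclc, Gclm, Gss, Gsr, Srxn1, Txnrd1, Gpx1, Gpx2 and Nqo1, out of 37310 gene identifiers in the tables. They were chosen by function, as genes of the glutathione cycle, of the thioredoxin system and of the NRF2 response. The rule uses no measured value, but the members were chosen with earlier results of these data known. Each symbol matched 1 identifier, and all 10 were among the 14172 genes that passed the low-count filter. RNA sequencing had been run on 11 organoid cultures grown from crypts of mouse small-intestinal epithelium. Organoids are self-organising epithelial cultures, and these were split every 7 days. Late cultures were from passages 11, 12 and 13 of mouse_283 and of mouse_285 (n = 6). Early cultures were from passages 2, 3 and 4 of mouse_283 and passages 2 and 4 of mouse_285 (n = 5). All of them, late and early, carried the Lgr5-EGFP-IRES-creERT2 allele, a reporter and inducible Cre driven from a stem cell gene, and no group without the allele was compared. The labels name donor ages of 4 and 24 months without tying either to an animal, so age was not compared.

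Glutathione is the most abundant small thiol of the cell and is built from glutamate, cysteine and glycine by glutamate-cysteine ligase and then glutathione synthetase. Peroxidases spend it on hydrogen peroxide and lipid peroxides, and glutathione reductase restores it with NADPH. The thioredoxin system runs in parallel and keeps peroxiredoxins active. NRF2, encoded by Nfe2l2 and held low by KEAP1, switches on many of these genes through antioxidant response elements, and in the gut the system meets oxidants from food, microbes and rapid turnover. Gpx1, Gpx2 and Txnrd1 encode selenoproteins, in which the catalytic site holds selenocysteine.

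The libraries held 15114132 to 28949911 reads in genes. Summed epithelial markers lay at 7276 to 9947 CPM in late libraries and at 8137 to 16906 CPM in early libraries, where CPM is the read count scaled to the normalised library size. The fibroblast markers Dcn, Lum and Thy1, the immune markers Ptprc and Cd3e and the colon markers Car1, Car4 and Hoxb13 were at or near 0 in every library. Passages 3 and 4 of mouse_283 stood apart by base composition. Slopes of log2 expression on GC content were 0.974 and 0.778 per 10 points in these libraries, and -0.407 to 0.199 in the other 9. The lowest slope, -0.407, was that of passage 2 of mouse_283. That library also had the highest share of reads in no gene, 11.7%, against 3.77% to 6.64% in the others. Late against early changes that moved by over 1.5 times without these 2 libraries are given with and without them. Stage and any culture or sequencing batch cannot be told apart, and the p-values rest on differences between libraries taken from only 2 animals. In bulk RNA, fewer cells of a type and less RNA per cell cannot be told apart.

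The region around the start of each gene shows where the antioxidant response element could lie. RefSeq windows of 300 bases on GRCm38.p6, 250 before and 50 after the start site, were at hand for 7 of the 10 genes, with 9 windows in all. Those of Srxn1, which fell late, and of Gpx1 and Gpx2, whose ratio differed between stages, are printed. Capitals mark letters that fit TGANNNNGC on either strand (GCNNNNTCA on the printed strand), a loose form of the element.
Srxn1 promoter, chr2:152105274-152105573, plus strand: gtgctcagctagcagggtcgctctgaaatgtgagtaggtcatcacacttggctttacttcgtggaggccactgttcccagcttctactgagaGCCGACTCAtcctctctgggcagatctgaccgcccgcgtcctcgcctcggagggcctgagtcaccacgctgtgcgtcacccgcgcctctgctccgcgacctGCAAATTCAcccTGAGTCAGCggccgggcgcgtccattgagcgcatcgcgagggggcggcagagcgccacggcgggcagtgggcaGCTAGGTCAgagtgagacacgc
Gpx1 promoter, chr9:108338830-108339129, plus strand: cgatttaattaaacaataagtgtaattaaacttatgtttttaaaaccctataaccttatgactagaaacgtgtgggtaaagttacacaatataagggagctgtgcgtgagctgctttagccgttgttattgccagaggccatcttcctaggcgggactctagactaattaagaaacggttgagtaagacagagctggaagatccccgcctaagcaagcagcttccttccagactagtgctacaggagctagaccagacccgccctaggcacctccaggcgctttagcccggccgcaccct
Gpx2 promoter, chr12:76795505-76795804, minus strand: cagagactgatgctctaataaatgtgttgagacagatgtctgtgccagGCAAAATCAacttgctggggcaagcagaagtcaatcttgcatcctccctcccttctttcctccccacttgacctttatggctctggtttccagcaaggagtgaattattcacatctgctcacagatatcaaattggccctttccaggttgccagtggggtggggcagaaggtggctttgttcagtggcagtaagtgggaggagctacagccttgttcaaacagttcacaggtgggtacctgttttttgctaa
The Srxn1 window held 4 matches, among them TGAGTCAGC starting 45 bases before the start site. Its match GCTAGGTCA, which begins at base 29 after the start site, also fits the stricter core TGACNNNGC (GCNNNGTCA on the printed strand). Every match to the core also matches the loose form. The Gpx2 window held a single loose match and the Gpx1 window none. Of the member windows, 3 held the core, those of Gclm, Srxn1 and 1 start site of Txnrd1, and 5 held the loose form. Over all 32851 promoter windows of this length, 12.4% held the core and 41.3% the loose form. These are letter matches in a window, and no binding was measured.

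Late against early, 2 of the 10 genes fell, Oplah and Srxn1, and none rose by edgeR's quasi-likelihood test. Among all 14172 genes tested, 3.05% passed the threshold of an adjusted p of 0.05, 0.706% higher late and 2.34% lower late. At an unadjusted p under 0.05 there were 5 members, against 23.6% of all genes. DESeq2 called 1 member higher and 2 lower, and 9.48% of all genes. The members' median log2 change was -0.01, against -0.02 over all genes tested. Without passages 3 and 4 of mouse_283, 2 members rose, Gpx1 and Gpx2, and 2 fell, Oplah and Srxn1, where 4.59% of all genes were called. Without passage 2 of mouse_283, 2 rose, Gclc and Gpx1, and 3 fell, Oplah, Gss and Srxn1, where 34.3% of all genes were called. After correction for GC content and transcript length Gpx1 rose and Oplah fell, where 7.19% of all genes were called. Direction and size differed between members, and they are taken in turn by role.

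**Figure D1:**
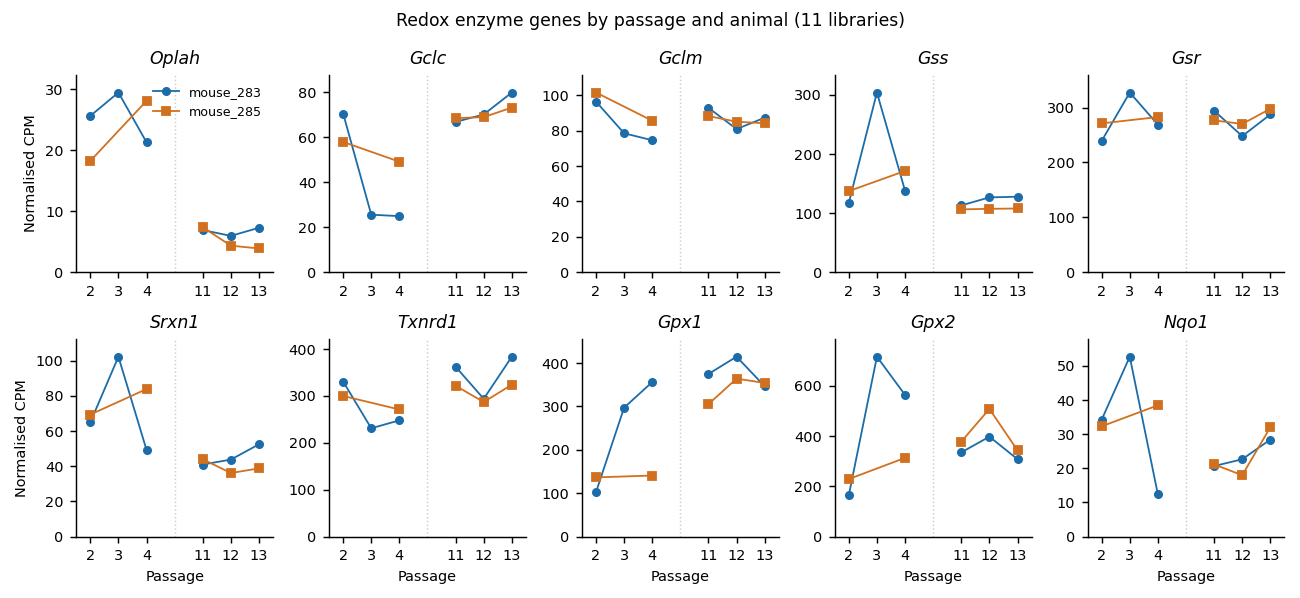
Normalised CPM (y axis, from 0 in each panel) of the 10 genes against passage (x axis, with the gap between passages 4 and 11 shortened at the dotted line), circles for mouse_283 and squares for mouse_285. Oplah lies at 3.91 to 7.38 CPM in every late library and at 18.2 to 29.4 CPM in every early one, while the other 9 genes overlap between stages.

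Oplah, which encodes the ATP-driven oxoprolinase that returns oxoproline to glutamate in the gamma-glutamyl cycle, had the largest log2 change of the 10 members. It measured 6.93, 5.97 and 7.30 CPM at passages 11, 12 and 13 of mouse_283 and 7.38, 4.37 and 3.91 CPM at the same passages of mouse_285. Early, it measured 25.6, 29.4 and 21.3 CPM at passages 2, 3 and 4 of mouse_283 and 18.2 and 28.1 CPM at passages 2 and 4 of mouse_285. All late libraries lay below all early ones, as was the case for 3.51% of genes tested. The log2 change was -2.02 (SE 0.22, adjusted p = 0.000761), a level 4.05-fold lower late, and it kept its call in all 20 alternatives, with log2 changes of -2.14 to -1.76. Within mouse_283 the change was -1.92 (SE 0.31, adjusted p = 0.0125), where 1.42% of genes were called. Within mouse_285, with only 2 early libraries, it was -2.14 (SE 0.33, adjusted p = 0.0673), where 0.0% of genes were called. Exons of Oplah overlap Smpd5 and Exosc4 on the opposite strand in the later annotation, and the counts are unstranded. Exosc4 averaged 22.4 ± 2.96 CPM late and 24.1 ± 10.7 CPM early (SD, n = 6 and 5), with a log2 change of -0.09 (SE 0.26, adjusted p = 0.828). Smpd5 averaged 0.771 ± 0.387 CPM late and 0.900 ± 0.492 CPM early.

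The first enzyme of glutathione synthesis is a pair of subunits. Gclc, the catalytic subunit of glutamate-cysteine ligase, measured 66.8, 70.1 and 79.9 CPM in late mouse_283 and 68.5, 69.0 and 73.2 CPM in late mouse_285. In early mouse_283 it measured 70.6, 25.6 and 24.98 CPM at passages 2, 3 and 4, and in early mouse_285 57.9 and 49.2 CPM. The 2 lowest values were those of passages 3 and 4 of mouse_283, and passage 2 of that animal lay within the late range. Its log2 change was 0.64 (SE 0.26, adjusted p = 0.171), against 0.25 (SE 0.13, adjusted p = 0.311) when those libraries were left out. Without passage 2 of mouse_283 it was 0.93 (SE 0.21, adjusted p = 0.0156). Correction for GC content and length on all 11 libraries gave 0.54 (SE 0.17, adjusted p = 0.0739). Across the 11 libraries log2 CPM of Gclc had r = -0.95 with the library's slope on GC content. The same measure was 0.80 for Gss, -0.74 for Txnrd1, 0.69 for Gpx2 and -0.66 for Gclm, and from 0.11 to 0.58 for the other 5 members. These are descriptions, and the part of base composition was not tested beyond the correction.

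Gclm, the modifier subunit that raises the ligase's affinity and eases its feedback inhibition, was nearly level. It ranged over 80.9 to 92.9 CPM in late libraries (median 86.1), and early libraries held 96.4, 78.5 and 74.6 CPM in mouse_283 and 101.5 and 85.6 CPM in mouse_285. The late range lay inside the early one, and the log2 change was -0.02 (SE 0.13, adjusted p = 0.935), against -0.13 (adjusted p = 0.573) with passages 3 and 4 of mouse_283 left out. With the GC and length correction it was -0.62 (SE 0.21, adjusted p = 0.0867). The gene Gm17494, which overlaps Gclm on the opposite strand, averaged 2.78 ± 1.12 CPM late and 2.21 ± 1.11 CPM early (SD, n = 6 and 5).

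Levels of Gclc and Gclm were compared in TPM, which are counts scaled to each gene's total exon length and to the library. The ratio of Gclc to Gclm was 1.20, 1.45 and 1.53 in late mouse_283 and 1.297, 1.355 and 1.453 in late mouse_285. Early, it was 1.22, 0.545 and 0.560 in mouse_283 and 0.954 and 0.959 in mouse_285. In mouse_285 the late and early ratios did not overlap, and in mouse_283 the early passage 2 lay between the lowest and the next late value. The size of the ratio depends on the lengths used, while the order of the libraries does not. By CPM, Gclm averaged 86.4 late and 87.3 early, and Gclc 71.3 and 45.7.

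Gss, glutathione synthetase, which adds glycine in the final step, ranged over 107 to 128 CPM in late libraries (median 111). Early libraries held 117, 304 and 138 CPM at passages 2, 3 and 4 of mouse_283 and 137 and 171 CPM at passages 2 and 4 of mouse_285. Passage 3 of mouse_283 stood above all others. Gss changed by -0.57 on the log2 scale (SE 0.22, adjusted p = 0.158). Leaving out passages 3 and 4 of mouse_283 gave -0.31 (SE 0.14, adjusted p = 0.252). Leaving out passage 2 of that animal gave -0.69 (SE 0.19, adjusted p = 0.0224). Correction for GC content and length on all libraries gave -0.72 (SE 0.25, adjusted p = 0.0949). Exons of Gss overlap Acss2 on the opposite strand in the later annotation, and Acss2 averaged 111 ± 13.4 CPM late and 144 ± 22.3 CPM early (SD, n = 6 and 5).

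Gsr, glutathione reductase, which regenerates glutathione with NADPH, ranged over 248 to 298 CPM late (median 282). The early values were 239, 327 and 269 CPM in mouse_283 and 271 and 282.7 CPM in mouse_285. Both extremes of the 11 libraries were early, and the log2 change was 0.005 (SE 0.14, adjusted p = 0.983). With passages 3 and 4 of mouse_283 left out it was 0.09 (SE 0.12, adjusted p = 0.714).

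In the thioredoxin branch Srxn1 differed between stages. It encodes sulfiredoxin, which repairs overoxidised peroxiredoxins. Late libraries held 41.0, 43.8 and 52.5 CPM in mouse_283 and 44.0, 36.1 and 38.8 CPM in mouse_285. Early libraries held 64.9, 102 and 49.3 CPM in mouse_283 and 69.4 and 83.9 CPM in mouse_285. The stages overlapped only where passage 4 of mouse_283 fell below passage 13 of the same animal. Srxn1 fell by 0.79 on the log2 scale (SE 0.19, adjusted p = 0.0455), and by 0.78 when passages 3 and 4 of mouse_283 were left out (SE 0.15, adjusted p = 0.0079). The call lay close to the threshold: it was lost in 13 of 20 alternatives, with adjusted p-values of 0.00686 to 0.169 over all 20. Among these were the fits without any 1 library other than passages 2 and 4 of mouse_283, and the GC and length correction, with -0.55 (SE 0.16, adjusted p = 0.0567).

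Txnrd1, the cytosolic thioredoxin reductase, ranged over 287 to 384 CPM late (median 323). Early it measured 331, 231 and 248 CPM in mouse_283 and 300 and 271 CPM in mouse_285. The ranges overlapped, and the 2 lowest values were passages 3 and 4 of mouse_283. Txnrd1 changed by 0.25 on the log2 scale (SE 0.15, adjusted p = 0.294), and by 0.10 with these left out (SE 0.13, adjusted p = 0.706).

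Nqo1, a quinone reductase long used as a readout of NRF2, ranged over 17.97 to 32.01 CPM late (median 21.9). Early it measured 34.2, 52.7 and 12.3 CPM in mouse_283 and 32.3 and 38.4 CPM in mouse_285. All early libraries except passage 4 of mouse_283, the lowest of all 11, lay above every late one. The log2 change was -0.52 (SE 0.30, adjusted p = 0.289), and no alternative brought it past the threshold.

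Gpx1, the widely expressed cytosolic glutathione peroxidase, stood higher in every late library than in 4 of the 5 early libraries. It measured 375, 415 and 347 CPM in late mouse_283 and 305, 364 and 354 CPM in late mouse_285. Early it measured 102, 297 and 356 CPM at passages 2, 3 and 4 of mouse_283 and 136 and 141 CPM in mouse_285. Passage 4 of mouse_283 was the early value that reached the late range, and passage 3 lay just under it. With all libraries the log2 change was 0.90 (SE 0.28, adjusted p = 0.100). Without passages 3 and 4 of mouse_283 Gpx1 rose by 1.52 (SE 0.16, adjusted p = 0.000173), and with the GC and length correction on all 11 libraries by 1.24 (SE 0.17, adjusted p = 0.00159). It passed the threshold in 6 of 20 alternatives, including the fits without passage 2 and without passage 4 of mouse_283, and its log2 change was positive in all 20.

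Gpx2, the peroxidase typical of gut epithelium and of crypt bases, measured 335, 398 and 308 CPM in late mouse_283 and 378, 509 and 344 CPM in late mouse_285. In early mouse_283 it measured 165, 717 and 564 CPM at passages 2, 3 and 4, and in early mouse_285 229 and 313 CPM. The 2 highest of all 11 libraries were passages 3 and 4 of mouse_283, and the other early libraries lay low. With all libraries Gpx2 changed by -0.01 on the log2 scale (SE 0.34, adjusted p = 0.986), and with these 2 left out it rose by 0.77 (SE 0.18, adjusted p = 0.0265). With the GC and length correction it was -0.18 (SE 0.39, adjusted p = 0.793). A pseudogene, Gpx2-ps1, is counted separately, at 0.687 ± 0.309 CPM late and 0.648 ± 0.456 CPM early (SD, n = 6 and 5).

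**Figure D2:**
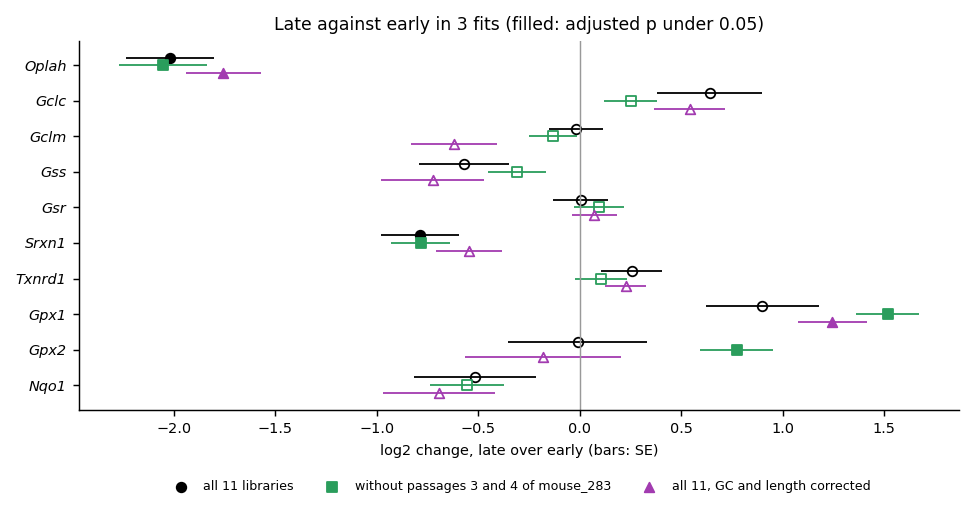
Log2 change of late over early (x axis) with its SE for the 10 genes (y axis) in 3 fits, filled where the adjusted p was under 0.05. Oplah lies between -2.05 and -1.76 in all 3, whereas Gpx2 lies at -0.01 with all libraries and at 0.77 without passages 3 and 4 of mouse_283.

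The balance of the peroxidases differed between stages. Per length, the ratio of Gpx1 to Gpx2 TPM was 2.50, 2.33 and 2.51 in late mouse_283 and 1.81, 1.60 and 2.31 in late mouse_285. In early cultures it was 1.39, 0.927 and 1.41 in mouse_283 and 1.33 and 1.00 in mouse_285. Every late ratio lay above every early one, and the ratio was picked for description after its values were seen, so no test is given. Its size depends on the exon lengths used, while the order of the libraries does not.

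In TPM, a level per total exon length of each gene, Gpx1 was the highest member. It averaged 633 ± 39.7 late and 288 ± 147 early (SD, n = 6 and 5). Gpx2 followed at 298 ± 50.7 late and 240 ± 105 early, and Gsr at 258 ± 28.5 late and 210 ± 27.8 early. Ranges of Gpx2 and Gsr overlapped at both stages, and early ranges of Gpx1 overlapped both. Txnrd1 came next, at 118 ± 16.5 late and 84.4 ± 26.9 early. Gss, Gclc, Nqo1, Srxn1 and Gclm averaged 34.9 to 49.3 TPM late and 27.1 to 58.0 TPM early, with ranges that overlapped between neighbours in the order of each stage. Oplah was the lowest, at 2.60 ± 0.683 late and 8.75 ± 1.76 early. The order of members depends on the lengths used. By CPM, Gpx2 averaged 379 late and 398 early, and Gpx1 360 and 206.

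Between the animals, mouse_285 against mouse_283, edgeR called no member and 0.0776% of all genes. No member had an unadjusted p under 0.05, against 5.15% of all genes, and DESeq2 called none, against 0.889%. Log2 differences ran from -0.46 for Gpx1 to 0.16 for Gclc, and without passages 3 and 4 of mouse_283 these were 0.03 and -0.14.

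For the interaction of stage and animal, edgeR called no member and 0.0% of all genes. No member reached an unadjusted p of 0.05, against 2.13% of all genes, and DESeq2 called none, against 0.113%. The interaction ran from -0.45 for Gclc to 1.07 for Gpx2, with 0.71 for Gpx1. All of these turned without passages 3 and 4 of mouse_283, to 0.36 for Gclc, -0.48 for Gpx2 and -0.59 for Gpx1. In that fit the early level of mouse_283 rests on passage 2 alone. Without passage 2 of mouse_283, 2 members were called higher and 1 lower in the interaction, where 16.3% of all genes were called.

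A slope with passage number within stages was called for no member and for 0.0% of all genes, by edgeR and by DESeq2. None of the members had an unadjusted p under 0.05, against 6.43% of all genes. Slopes ran from -0.17 log2 units per passage for Gclc to 0.24 for Gpx1, and without passages 3 and 4 of mouse_283 these were -0.01 and 0.06.

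The other genes of these pathways were counted in 9 lists, in which the members themselves are included. Some genes stand in more than 1 list, so the lists are not independent. Over all genes tested, 0.706% were higher late and 2.34% lower late, and 4.59% were called without passages 3 and 4 of mouse_283. In the list of glutathione synthesis and breakdown, 4 of 18 genes fell and none rose, with a median log2 change of -0.23 (-0.12 without passages 3 and 4 of mouse_283, with 1 higher and 4 lower). Besides Oplah, these were Ggt1, Ggt7 and Dpep1. Ggt1, the gamma-glutamyltransferase that opens glutathione outside the cell, averaged 14.2 ± 3.01 CPM late and 50.1 ± 27.9 CPM early (SD, n = 6 and 5). Its log2 change was -1.76 (SE 0.30, adjusted p = 0.0107). Dpep1, a membrane dipeptidase that splits cysteinylglycine, averaged 7.81 ± 3.36 CPM late and 29.9 ± 9.05 CPM early, with a change of -2.10 (SE 0.30, adjusted p = 0.00377). Ggt7, a member of the same transferase family, averaged 0.896 ± 0.302 CPM late and 3.27 ± 0.429 CPM early, with a change of -1.97 (SE 0.27, adjusted p = 0.00314). For all 4 genes every late library lay below every early library, as was the case for 3.51% of genes tested. All 4 kept their calls without passages 3 and 4 of mouse_283 and with the GC and length correction. Of the enzymes of synthesis in this list, Gclc, Gclm and Gss, none passed the test.

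Summed enterocyte markers lay at 2458 to 3409 CPM late and at 3996 to 5261 CPM early, with 4 of 10 of them lower late and none higher. Summed tuft cell markers lay at 12.9 to 18.2 CPM late and at 24.2 to 35.5 CPM early, with 4 of 7 tested lower late. Both ranges were apart between stages, as those of Oplah, Ggt1, Ggt7 and Dpep1 were. Their part in these falls was not tested. Summed stem cell markers overlapped between stages, at 1362 to 3082 CPM late and 960 to 2279 CPM early.

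Slc7a11, the cystine importer that supplies cysteine for glutathione, held 43.2, 87.8 and 53.0 CPM in late mouse_283 and 26.4, 23.8 and 24.8 CPM in late mouse_285. Early it held 28.6, 8.74 and 4.11 CPM in mouse_283 and 16.7 and 15.4 CPM in mouse_285. Within each animal every late library lay above every early one. Slc7a11 changed by 1.47 on the log2 scale (SE 0.46, adjusted p = 0.0998), and by 0.82 with passages 3 and 4 of mouse_283 left out (adjusted p = 0.0446).

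Among 9 tested glutathione peroxidases and glutaredoxins, 1 fell, Gpx7, a peroxidase of the endoplasmic reticulum, and none rose, with a median of -0.01. Without passages 3 and 4 of mouse_283, 2 rose and 1 fell, with a median of 0.34, where 4.59% of all genes were called. Gpx7 averaged 0.657 ± 0.316 CPM late and 2.20 ± 0.879 CPM early (SD, n = 6 and 5), a log2 change of -1.94 (SE 0.35, adjusted p = 0.0114). Gpx4, which protects membranes from lipid peroxides, changed by -0.43 (SE 0.23, adjusted p = 0.267), and by -0.06 without those 2 libraries (adjusted p = 0.864). Of 22 glutathione S-transferases, which couple glutathione to electrophiles, 1 rose, Gsta3, and none fell. Their median was -0.23, and it turned to 0.14 without those 2 libraries. Gsta3 averaged 54.7 ± 7.72 CPM late and 26.1 ± 7.18 CPM early. It rose by 1.07 on the log2 scale (SE 0.20, adjusted p = 0.0126) and lost its call with the GC and length correction (0.54, adjusted p = 0.247). Among 20 thioredoxin, peroxiredoxin and sulfiredoxin genes, Srxn1 alone was called. The median was -0.26, and it turned to 0.02 without the same libraries. Prdx1, a main substrate of sulfiredoxin, changed by -0.14 (SE 0.16, adjusted p = 0.574), or 0.06 without them (adjusted p = 0.817), and Txnip, the thioredoxin inhibitor, by 0.16 (SE 0.15, adjusted p = 0.504).

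None of the 10 NRF2 pathway regulators was called by edgeR or DESeq2, and their median was 0.02 (-0.09 without passages 3 and 4 of mouse_283). By edgeR, 3 had an unadjusted p under 0.05, all with lower values late, in a fit where 23.6% of all genes did. Without passage 2 of mouse_283, 2 were called higher and 2 lower, where 34.3% of all genes were called. Without the low-count filter 1 was called higher, where 7.74% of all genes were. Nfe2l2 averaged 227 ± 29.9 CPM late and 141 ± 78.5 CPM early (SD, n = 6 and 5), with a log2 change of 0.69 (SE 0.33, adjusted p = 0.218). Its 2 lowest values, 64.5 and 64.2 CPM, were those of passages 3 and 4 of mouse_283. Leaving these out gave 0.20 (adjusted p = 0.512), and leaving out passage 2 of that animal gave 1.05 (adjusted p = 0.0225). Over 20 alternatives Nfe2l2 passed the threshold in 2, this fit and that without a low-count filter. Keap1, the repressor, averaged 77.4 ± 8.86 CPM late and 93.9 ± 12.5 CPM early, with a change of -0.28 (SE 0.15, adjusted p = 0.260), or -0.18 without passages 3 and 4 of mouse_283 (adjusted p = 0.526). Of 22 tested NRF2 targets outside the redox cycles, Nqo1 among them, 1 rose and 1 fell. Their median was -0.36 (-0.07 without passages 3 and 4 of mouse_283). G6pdx, Pgd, Taldo1, Tkt, Me1 and Idh1 are counted both here and under NADPH supply. Abcc4, an efflux pump, rose by 1.09 (SE 0.25, adjusted p = 0.0369), and Sqstm1, the autophagy receptor that binds KEAP1, had a change of -0.96 (SE 0.22, adjusted p = 0.0378). Abcc4 lost its call in 9 of 20 alternatives and Sqstm1 in 7, among them the fits without passage 4 of mouse_285 and without any 1 late library. For Abcc4, they also included the fit without passage 2 of mouse_285 and the fit on library totals. Hmox1, haem oxygenase, changed by -0.47 (SE 0.17, adjusted p = 0.143). No gene was called among 11 of NADPH supply by edgeR or DESeq2, and 1 had an unadjusted p under 0.05. Their median was -0.24, and -0.03 without passages 3 and 4 of mouse_283. Without passage 2 of that animal 2 were called higher and 3 lower. Among 8 of superoxide and peroxide removal edgeR called none, with 2 at an unadjusted p under 0.05, and DESeq2 called 1 lower. Their median was -0.53, and -0.23 without passages 3 and 4 of mouse_283, and 2 were called lower without passage 2 of that animal and also without the low-count filter.

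**Figure D3:**
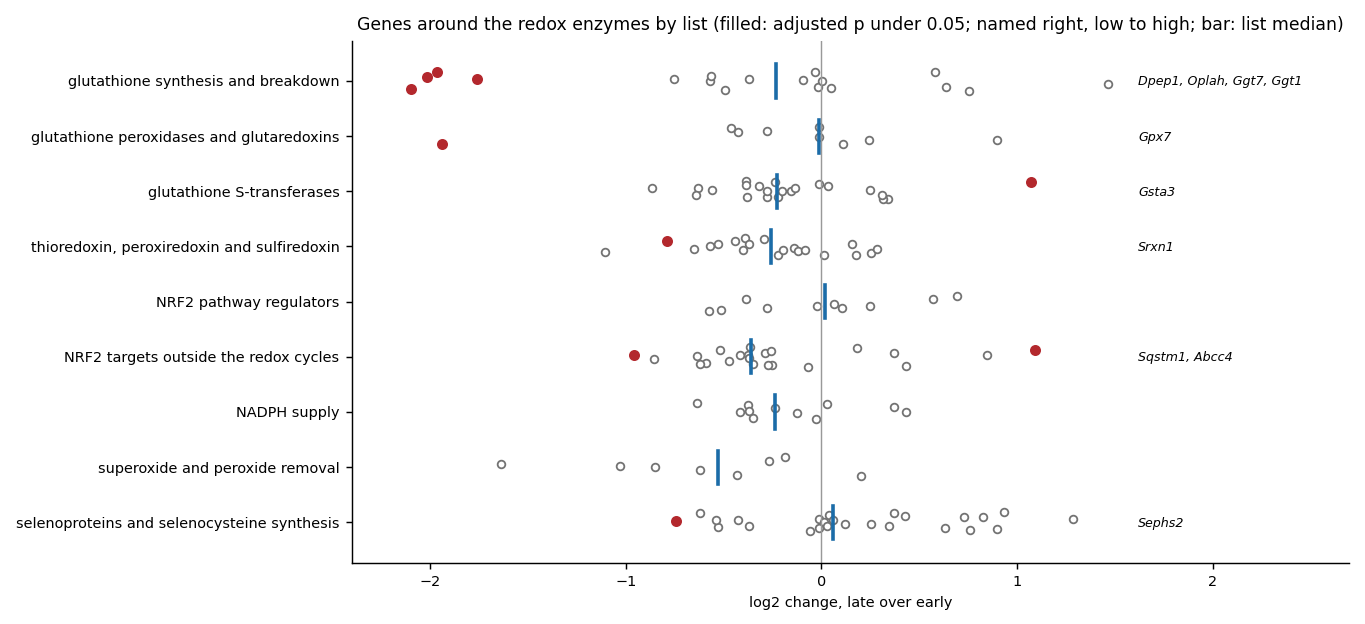
Log2 change of late over early (x axis) of each tested gene in the 9 lists (y axis), filled where the adjusted p was under 0.05, with the list median as a vertical bar. The glutathione synthesis and breakdown list holds the largest group of called genes, with Dpep1, Oplah, Ggt7 and Ggt1 between -2.10 and -1.76.

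The genes whose levels across the 11 libraries were most like those of each member were drawn from 9591 candidates by Pearson's r of log2 CPM. For Gpx1 they were Selenoh (r = 0.98), Selenow (r = 0.97) and Selenom (r = 0.97), each of which encodes a selenoprotein. With the GC and length correction these values were 0.94, 0.97 and 0.96. Other selenoprotein genes had lower values, the highest of them Selenon (r = 0.78), Gpx2 (r = 0.70) and Dio1 (r = 0.63). After the correction these were 0.78, 0.15 and 0.52, and Txnrd3 went from 0.35 to 0.76. Gpx4 had r = 0.10 with Gpx1, Txnrd1 r = 0.03 and Selenop r = -0.03, and with the correction these were -0.24, 0.62 and 0.51. Sephs2, which makes the selenium donor for selenocysteine, had r = -0.59, and -0.94 with the correction. The points share 2 animals, 2 stages and the GC trends of their libraries, so these values are descriptions.

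Selenow measured 263, 250 and 211.0 CPM in late mouse_283 and 246, 345 and 248 CPM in late mouse_285. Early it measured 40.6, 160 and 210.9 CPM at passages 2, 3 and 4 of mouse_283 and 69.6 and 79.1 CPM in mouse_285. As with Gpx1, passage 2 of mouse_283 was the lowest and passage 4 of that animal reached the edge of the late range. Selenow changed by 1.29 on the log2 scale (SE 0.37, adjusted p = 0.0807), and by 2.15 with passages 3 and 4 of mouse_283 left out (adjusted p = 5.2e-05). Selenoh changed by 0.93 (SE 0.31, adjusted p = 0.118) and by 1.60 without those libraries (adjusted p = 0.000241). Selenom changed by 0.83 (SE 0.31, adjusted p = 0.148) and by 1.48 without them (adjusted p = 0.00104).

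Of 25 genes for selenoproteins and selenocysteine synthesis, 1 fell and none rose with all libraries, with a median of 0.06 (0.13 without passages 3 and 4 of mouse_283). The gene that fell was Sephs2, which averaged 250.1 ± 21.1 CPM late and 418 ± 75.3 CPM early (SD, n = 6 and 5), with a log2 change of -0.74 (SE 0.15, adjusted p = 0.0230). Its call was lost without passage 4 of mouse_285, or without any 1 late library other than passage 13 of mouse_285, with adjusted p-values up to 0.0979. Without passages 3 and 4 of mouse_283, 6 rose and 1 fell, where 4.59% of all genes were called. With the GC and length correction 4 rose and 1 fell, where 7.19% of all genes were called.

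**Figure D4:**
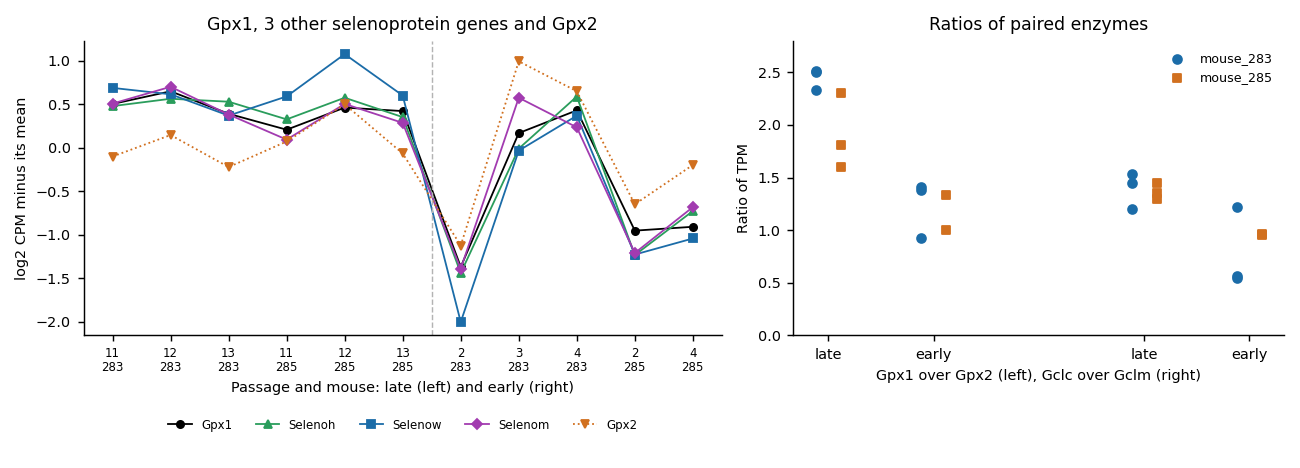
Left, log2 CPM minus each gene's mean (y axis) for Gpx1, Selenoh, Selenow, Selenom and Gpx2 by library (x axis, late left of the dashed line and early right of it). Right, ratios of TPM (y axis) by stage, circles for mouse_283 and squares for mouse_285. Gpx1 and the other 3 selenoprotein genes move together across libraries, and the ratio of Gpx1 to Gpx2 lies at 1.60 to 2.51 late and 0.927 to 1.41 early.

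For Oplah the nearest genes were Sgsm1 (r = 0.96), Irf7 (r = 0.96) and Uba7 (r = 0.96). The same measure named Abcd4, Slc6a8 and Cidec for Srxn1, Met, Tulp4 and Selenop for Gclc, and Ms4a10, Yif1a and Mvp for Gss. It named Slc31a1, Smad7 and Nudt4 for Gclm, Vgf, Fam219b and Slc25a26 for Gsr, and Cep72, Klhl5 and Ermp1 for Txnrd1. For Gpx2 it named Deaf1, Snrpg and Nme4, and for Nqo1 Ces2e, Cyp4f40 and St3gal4. With the GC and length correction r turned to -0.76 for Smad7 and -0.48 for Nudt4 with Gclm, and Ermp1 dropped to 0.39 with Txnrd1.

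Correlations among the members ran in both directions, and no background of other gene pairs was computed. Over the 45 pairs of members, r of log2 CPM across the 11 libraries ran from -0.84 for Gclm with Gpx2 to 0.88 for Oplah with Srxn1, with a median of -0.03 and 21 positive pairs. With the GC and length correction Oplah and Srxn1 kept 0.78, while Gclm and Gpx2 turned to 0.68. Gclc with Gclm went from 0.60 to -0.94, the lowest corrected value. Every late library lay above every early one for 2.21% of genes tested, and for none of the members.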

How the data were processed

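Each of the 11 libraries is 1 passage of 1 animal's organoids, per the labels. The authors deposited raw read counts per gene, without strand and for each strand. Trimmomatic, STAR and the mm9 build are named in the submitters' processing notes. Versions and the annotation are not given in the sources used here. The first-strand column held 50.0% to 50.2% of stranded reads, so the unstranded counts were used. Unmapped reads made up 4.76% to 10.2%, multimapping 5.92% to 8.78%, reads in no gene 3.77% to 11.7% and ambiguous reads 3.11% to 4.03%; these lines were left out. The passage in each table's name was 1 higher than in the sample title, and titles were used. Of 37310 identifiers 32620 were given symbols, through an annotation of a later build (GENCODE on GRCm38), which also supplied lengths and GC content. Every pair of libraries differed beyond counting noise (chi-square over degrees of freedom at least 15.1).

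Computed here, in R 4.3.3 with edgeR 4.0.16: filterByExpr left 14172 genes, scaled by TMM and tested with the quasi-likelihood test, two-sided, with Benjamini-Hochberg adjustment over all genes at 0.05. Models held animal and stage, their interaction, or passage centred within stage. SE was derived from the log2 change and its F value. For log2 CPM the prior count was 2. Alternatives used DESeq2 1.42.0, limma 3.58.1, other scaling and filters, GC and length offsets (splines of 5 degrees of freedom, 13709 genes), left-out libraries and no animal term. Leave-out fits kept the same genes. Same-animal libraries correlated across stages with a median of 0.11 in their deviations, against -0.14 between animals (15 pairs each). The procedure was tested on simulated data. Members, lists and alternatives were chosen with earlier results of these data known. All 10 members were fitted in every comparison and are named late against early. Elsewhere the members with the lowest and highest values are named, with Gpx1 added in the interaction. Up to 6 called genes per list and 7 fixed pathway genes are also named. Per member, the 3 genes of at least 5 CPM with the highest r are given. Fold changes of Selenow, Selenoh and Selenom, which the last rule named, and the genes overlapping members were added after values were seen. The depth limits low genes: the lowest member count was 63 reads, in Oplah, and the highest 15636.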

Additional observations from a re-analysis of the deposited data

Results flagged for a closer look

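Gss in the early library of passage 3 of mouse_283 stood far from the other early libraries, at 304 CPM. Its gap to the nearest of the others was 0.711 of the range of the 5 early libraries, just above the critical value of 0.710. This was 1 of 20 groups examined (10 genes at 2 stages), and chance alone gives such a value in about 1 in 20 groups. The same library had the steepest slope of expression on GC content, 0.974 log2 units per 10 points, and its part in the Gss value was not tested.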

How the results depend on the processing

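Oplah kept its call in all 20 alternatives. Genes called late against early numbered 432 (100 higher, 332 lower), 1343 with DESeq2 (495 and 848), 986 with GC and length offsets (419 and 567), 1819 without a low-count filter (1053 and 766), 651 without passages 3 and 4 of mouse_283 (192 and 459), and 176 to 4864 leaving out 1 library. The highest was without passage 2 of mouse_283 (2599 and 2265). Library totals moved the median log2 change of all genes to 0.11, against -0.02. Members called higher numbered 1 with DESeq2, 1 with GC offsets, 2 without a filter, 2 without passages 3 and 4 of mouse_283 and 0 to 2 leaving out 1 library. Members called lower numbered 1 with GC offsets, RLE size factors, library totals or limma-voom, and 1 to 3 leaving out 1 library. Between animals, 11 genes were called, 126 with DESeq2, 40 with GC offsets, 4 with library totals, 7 with limma-voom, 207 without a filter, 109 without passages 3 and 4 of mouse_283 and 3 to 73 leaving out 1 library. For the interaction 0 genes were called by edgeR (302 at an unadjusted p under 0.05), 16 by DESeq2, 1 with GC offsets, 65 without a filter, 4 without passages 3 and 4 of mouse_283 and 0 to 2315 leaving out 1 library, with 0 to 2 members higher and 0 to 1 lower. For the slope 0 genes were called (911 at an unadjusted p under 0.05), and 0 by DESeq2. Without the animal term (no replicate block) 400 genes were called late against early, and no member's call changed.

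Several changes turned sign, and the cause was not tested. Gclm turned to 0.10 with library totals and 0.0202 without a filter. Gpx2 turned to 0.18 with library totals, 0.14 with limma-voom, 0.0131 without a filter and 0.77 without passages 3 and 4 of mouse_283. Gsr turned to -3.75e-05 with a filter of 1 CPM in 5 libraries, Keap1 to 0.00433 with GC offsets, and Prdx1 to 0.0144 with library totals and 0.0611 without passages 3 and 4 of mouse_283. Without those 2 libraries the interaction of Gpx1 turned to -0.59 and that of Gpx2 to -0.48. Leaving out 1 library, Gclm ran from -0.0663 to 0.0446, Gpx2 from -0.21 to 0.27 and Gsr from -0.0426 to 0.0901.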
